A study of Triticum aestivum with 4 samples.

Results

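The miR170/miR171 family of winter wheat leaves was followed through 4 growth stages. All names filed under this family in the deposited table of known miRNAs were taken, without regard to their levels, which gave 5 of the 371 known miRNAs: miR170-3p, miR171a-3p and miR171b from the 3p arm of the precursor, and miR170-5p and miR171k-5p from the 5p arm. The plants were wild-type winter wheat of the cultivar Shimai 22 in an open field, with no treatment, and the uppermost fully expanded leaves were taken at the three-leaf stage in autumn, at winter dormancy, at spring green-up and at jointing, when the stem begins to elongate. Equal amounts of RNA from 3 biological replicates were mixed before each library was made, which left a single small RNA library for each stage. How much plants of a stage vary is therefore unknown, and no difference between stages has a test. Stage, season, temperature and day length changed together in the field and cannot be told apart. The tables list miRNAs only, so the tissue label could not be set against leaf marker genes.

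In plants, miRNAs of this family pair with the mRNAs of GRAS transcription factors of the HAIRY MERISTEM (SCARECROW-LIKE) group and direct their cleavage. In Arabidopsis these factors keep the shoot meristem undifferentiated and also affect shoot branching and chlorophyll synthesis, and in barley raised miR171 delays changes of growth phase. For wheat, the paper reports a scarecrow-like transcript as a target of miR171a-3p, with its cleavage mapped by RNA ligase-mediated amplification of cDNA ends. A miRNA precursor is cut into a duplex of a 5p and a 3p strand, and in this family the 3p strand is the one usually loaded into the effector complex, while the 5p strand is usually degraded.

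The sequences are shown because the names of the family differ by so few bases. They come from the study's own list of sequences for known miRNAs and are shown with the seed, bases 2 to 8 from the 5′ end, in capitals:

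miR171a-3p: uGAUUGAGccgcgccaauauc

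miR171b: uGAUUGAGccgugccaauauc

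miR170-3p: uGAUUGAGccgugucaauauc

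miR170-5p: cGUACUUGgccuaguucaucau

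miR171k-5p: uGGUAUUGuuucggcucaug

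The 3 members from the 3p arm were 21 nt long and shared the seed GAUUGAG. The name miR171b states no arm and was placed with them by its sequence. Counted from the 5′ end, miR171a-3p differed from miR171b at a single base (U12C, with the base of miR171b first). In the same notation miR170-3p differed from miR171b by C14U. The pair miR171a-3p and miR170-3p differed at both positions, 12 and 14, and had 19 of 21 bases alike. Reads with a mismatch to a known miRNA were still accepted as that miRNA, and miR171b is 1 base away from both other names, which means that some reads may stand under a name other than their own. No other known miRNA and none of the 82 predicted miRNAs carried this seed, and none came within 2 mismatches of a member over 16 nt or more. The nearest sequence outside the family, that of the predicted miR4740, had 4 mismatches to miR170-3p over 16 nt.

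The differing bases also bear on how each name would pair with one and the same target. A site fully complementary to miR171a-3p, derived here by reversing and complementing that miRNA and not taken from a transcript, would read as follows:

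site: gauauuggcgcggcucaauca

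Against it miR171a-3p forms 21 Watson-Crick pairs. For miR171b 20 are Watson-Crick pairs and 1, at base 12, is a G:U pair. For miR170-3p the G:U pairs are 2, at bases 12 and 14, and no mismatch remains. The names therefore differ only in G:U pairs on this site, and no target mRNA was measured in these libraries. That result depends on the site chosen. On a site complementary to miR171b, the C of miR171a-3p at base 12 would face an A, which is a mismatch. The 5p members were 22 nt (miR170-5p) and 20 nt (miR171k-5p) long and had other seeds. In a minimum free energy fold of 2 strands, miR171k-5p formed 14 base pairs with each 3p member, at -18.2 kcal/mol with miR171a-3p, -18.8 kcal/mol with miR171b and -19.4 kcal/mol with miR170-3p. For miR170-5p it was 13 base pairs, at -13.4 kcal/mol with miR171a-3p and with miR171b and at -10.7 kcal/mol with miR170-3p. Neither 5p strand paired along its whole length with a listed 3p strand, and the fold does not show which precursor either came from.

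Levels are reads-per-million values (RPM) relative to the mapped reads, over libraries of 18.1 M to 21.8 M mapped reads. At that depth 1 read is worth between 0.0458 RPM at jointing and 0.0552 RPM at spring green-up. Reads were estimated from the RPM and these totals, and every interval below is a 95% interval for counting error alone. PCR copies are not independent molecules, so such intervals are the narrowest that could apply and do not cover differences between plants or library preparations. Since the choice of total can turn a direction, levels were also scaled by 5 other measures of depth: the summed known miRNAs, the same sum without the miR168 family, the summed known and predicted miRNAs, a median of ratios over miRNAs above 0 in all libraries, and the clean reads before mapping. The miR168 family, which targets the AGO1 effector protein of the pathway, was left out of a total because it is the most abundant in the table.

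The family consisted almost wholly of miR171b and miR171a-3p. Together they made up 99.8% to 99.9% of the family sum at every stage. The more abundant was miR171b, with 2566.1 RPM at the three-leaf stage, 3351.1 RPM at winter dormancy, 2406.6 RPM at spring green-up and 2491.7 RPM at jointing. In RPM it was highest in the winter library (at spring green-up when scaled without miR168), and the other 3 lay between 2406.6 and 2566.1 RPM. These values rest on 43627 to 68859 estimated reads, and miR171b ranked 9th or 10th among the 371 known miRNAs at every stage. For miR171a-3p the levels were 1479.9 RPM, 2190.1 RPM, 1881.1 RPM and 1183.4 RPM in the same order of stages. In RPM it was highest in the winter library and lowest at jointing (at spring green-up and the three-leaf stage when scaled without miR168), with ranks from 14th to 19th. Scaled by the total of known miRNAs, or of known and predicted miRNAs, miR171a-3p was also highest at spring green-up, by a narrow margin. Summed over all 5 names, the family had 4049.5 RPM at the three-leaf stage, 5551.2 RPM at winter dormancy, 4291.5 RPM at spring green-up and 3681.4 RPM at jointing. Among 289 known families the sum ranked 8th, 5th, 4th and 7th at these stages. It held 2.12%, 2.45%, 2.22% and 2.09% of the summed RPM of known miRNAs.

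**Figure D1:**
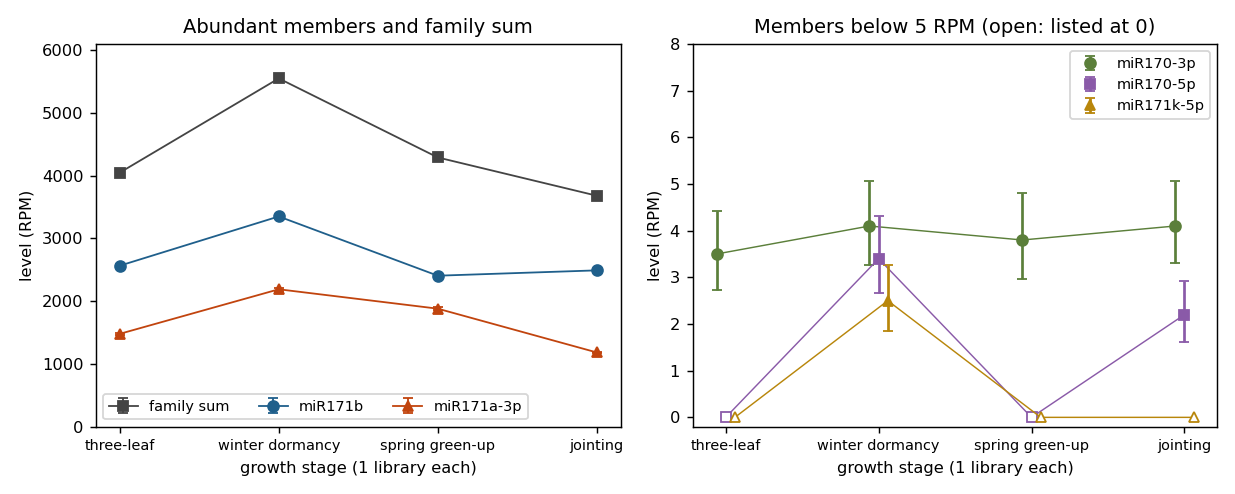
Level in RPM (y axis) of the abundant members and the family sum (left) and of the members below 5 RPM (right) in the library of each growth stage (x axis). Bars are 95% Poisson intervals of the estimated reads, too narrow to see on the left, and open symbols are values listed at 0. The family sum is highest at winter dormancy (5551.2 RPM) and miR171a-3p lowest at jointing (1183.4 RPM), while the intervals of miR170-3p overlap at all stages. Scaled by the known total without miR168, spring green-up is highest and the three-leaf stage lowest for miR171a-3p and for the sum. Scaled by the known total, or the known and predicted total, spring green-up is also highest for miR171a-3p.

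The remaining 3p member, miR170-3p, was listed at 3.5 RPM, 4.1 RPM, 3.8 RPM and 4.1 RPM from the three-leaf stage to jointing, on 69 to 90 estimated reads. All 4 intervals overlapped, with 2.73 RPM as their lowest and 5.07 RPM as their highest bound, so its stages could not be put in order at this depth. It had 0.122% to 0.164% of the level of miR171b and miR170-3p together, and the intervals of these shares overlapped as well (0.0972 to 0.151% at winter dormancy, 0.133 to 0.203% at jointing). A single base sets it apart from miR171b, and how many of its reads derive from miR171b was not tested.

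The 5p members were listed above 0 at only some stages. For miR170-5p the listed levels were 3.4 RPM at winter dormancy (interval 2.66 to 4.30) and 2.2 RPM at jointing (1.62 to 2.92), and it was listed at 0 at the three-leaf and spring green-up stages. For miR171k-5p 2.5 RPM was listed at winter dormancy (1.85 to 3.26), on 51 estimated reads, and 0 at the other 3 stages. The smallest value above 0 anywhere in the tables was 0.2 RPM, about 4 reads, and what a listed 0 stands for is not known, so no fold against it is given. The 5p members made up 0.106% of the family sum at winter dormancy and 0.0598% at jointing.

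The first comparison was between winter dormancy and the three-leaf stage, the step into the cold. The family sum was 1.37-fold higher at winter dormancy (interval 1.36 to 1.38), miR171a-3p was 1.48-fold higher (1.46 to 1.502) and miR171b was 1.31-fold higher (1.29 to 1.32). This direction held for all 3 under each of the 5 other scalings tried, with a smallest log2 difference of 0.14, for miR171b. Over the 72 known miRNAs with at least 50 RPM at every stage, 54 had a lower log2 difference than miR171a-3p (0.57) and 48 a lower one than miR171b (0.39). Measured from the median of these 72, which takes the scaling out, miR171a-3p lay 0.36 above it and miR171b 0.18 above it. Most of the abundant miRNAs thus lay below both names at this step, without either being at the top. By the criterion of more than 2-fold with more than 5 RPM in at least 1 of the libraries compared, 16.4% of the 371 known miRNAs differed, against 0 of the 5 family members. Only miR171a-3p and miR171b exceeded 5 RPM at any stage, so the other members could not meet it in any comparison.

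The second comparison set spring green-up against winter dormancy, the return to growth. In RPM the family sum was 1.29-fold lower at spring green-up (1.28 to 1.31), miR171b 1.39-fold lower (1.38 to 1.41) and miR171a-3p 1.16-fold lower (1.15 to 1.18). Measured from the median of the same 72 miRNAs, miR171b was at -0.29 and miR171a-3p at -0.036 on the log2 scale, with 25 and 31 of the 72 below them. These directions depend on the scaling. The miR168 family had 116994 RPM at spring green-up and 103651 RPM at winter dormancy. The total of known miRNAs without miR168 was 76674.2 RPM at spring green-up and 122635 RPM at winter dormancy. Within that total, miR159 had 18090.8 RPM at spring green-up and 46342.4 RPM at winter dormancy. Relative to the total without miR168, all 3 values became higher at spring green-up. The log2 differences were then 0.31 for the sum, 0.20 for miR171b and 0.46 for miR171a-3p. For miR171a-3p the sign also changed with the total of known miRNAs (0.0051) and with that of known and predicted miRNAs (0.019). Of all known miRNAs 30.2% met the criterion here, and 0 of the 5 members.

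The third comparison set jointing against spring green-up, and here the abundant members parted. For miR171a-3p the jointing level was 1.59-fold lower (1.56 to 1.62), a log2 difference of -0.67 that stayed between -0.78 and -0.53 under the other scalings. For miR171b it was 1.04-fold higher (1.02 to 1.05), a log2 difference of 0.050 that was 0.185 with scaling by the known total and -0.062 without miR168. Only 8 of the 72 abundant miRNAs had a lower log2 difference than miR171a-3p, and 40 had a lower one than miR171b. From the median of the 72 the distance was -0.64 for miR171a-3p and 0.079 for miR171b. The criterion was met by 35.6% of the known miRNAs and by 0 of the 5 members.

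**Figure D2:**
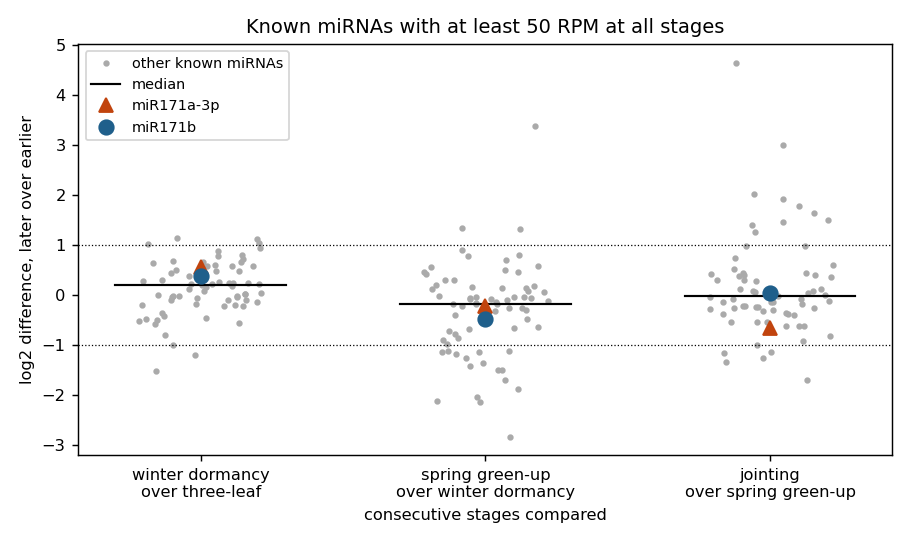
Log2 difference in RPM, later over earlier stage (y axis), for each pair of consecutive stages (x axis), over the 72 known miRNAs with at least 50 RPM at every stage. Grey points are single miRNAs, black lines medians, dotted lines a 2-fold difference; miR171a-3p (triangle) and miR171b (circle) lie within 2-fold in every pair and are furthest apart at jointing over spring green-up, where -0.67 stands against 0.050 (-0.062 for miR171b when scaled without miR168).

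Spring green-up compared with the three-leaf stage gave 1.27-fold higher miR171a-3p (1.25 to 1.29) and 1.07-fold lower miR171b (1.05 to 1.08), where miR171b turned to higher without miR168, and 28.0% of the known miRNAs met the criterion. At jointing compared with the three-leaf stage, miR171a-3p was 1.25-fold lower (1.23 to 1.27) and miR171b 1.03-fold lower (1.02 to 1.04), and both were higher without miR168, as was miR171b with either total of the tables; 39.4% met the criterion. At jointing compared with winter dormancy miR171a-3p was 1.85-fold lower (1.82 to 1.88), a log2 difference of -0.89 that was -0.32 when scaled without miR168 and below 0 under all 5 other scalings. For miR171b the level was 1.34-fold lower (1.33 to 1.36). Its log2 difference was -0.43 in RPM, -0.068 with the known total and 0.14 without miR168. In this comparison 40.2% of the known miRNAs met the criterion. Between any 2 of the stages it was met by 59.8% of the known miRNAs and by 0 of the 5 members. That share counts folds against listed zeros, which were raised to 3 reads, and with listed zeros treated as missing the number of known miRNAs meeting it was 131 in place of 222. The criterion needs more than 5 RPM, which only miR171a-3p and miR171b reached, so the count rests on those names. In RPM the highest level was 1.85-fold the lowest for miR171a-3p and 1.39-fold for miR171b, beside a median of 1.997-fold over the 72 abundant miRNAs, of which 30 had a smaller range than miR171a-3p and 13 a smaller one than miR171b. In RPM winter dormancy was the stage of the highest level for 30 of these 72.

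The balance between the abundant names is free of scaling, since both are read from the same library. The share of miR171a-3p in miR171a-3p plus miR171b was 36.6% (36.2 to 36.9%, an exact interval by Clopper and Pearson) in the three-leaf library, 39.5% at winter dormancy (39.2 to 39.8%), 43.9% at spring green-up (43.5 to 44.2%) and 32.2% at jointing (31.9 to 32.5%). No intervals overlapped, so each share differed from the others beyond counting error, with jointing lowest and spring green-up highest. The level of miR171b was thus 2.11-fold that of miR171a-3p at jointing and 1.28-fold at spring green-up. As a difference of log2 differences, miR171a-3p minus miR171b was 0.18 for winter dormancy over the three-leaf stage (0.15 to 0.21), 0.26 for spring green-up over winter dormancy (0.23 to 0.28) and -0.72 for jointing over spring green-up (-0.75 to -0.69). Adding the reads of miR170-3p to either name left every share within its interval, but with at most 4.1 RPM it could hardly move one. Reads of miR171a-3p and miR171b filed under each other's name could move the shares, and this was not tested.

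**Figure D3:**
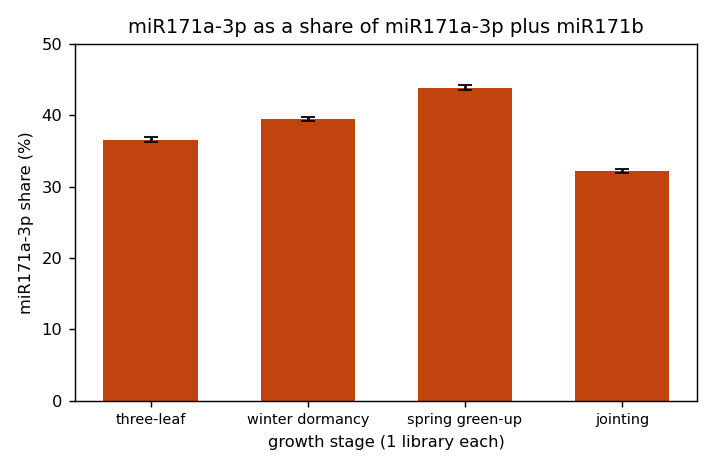
Share of miR171a-3p in the sum of miR171a-3p and miR171b, in percent (y axis), in the library of each growth stage (x axis), with 95% Clopper-Pearson intervals as bars. The share is 32.2% at jointing, the lowest, and 43.9% at spring green-up, the highest.

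The shift between miR171a-3p and miR171b lay in the middle of those between other names of a family. Among the 72 abundant miRNAs there were 9 pairs of names from a common family, and the ratio between the names varied over the stages by 1.36-fold for miR168-3p and miR168a-5p, the steadiest pair, and by 7.15-fold for miR6224a-3p and miR6224a-5p, the most variable. The pair miR171a-3p and miR171b, at 1.65-fold, stood 5th of the 9. These pairs share the same 4 libraries, and several are the opposite arms of a precursor rather than near-identical names.

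**Figure D4:**
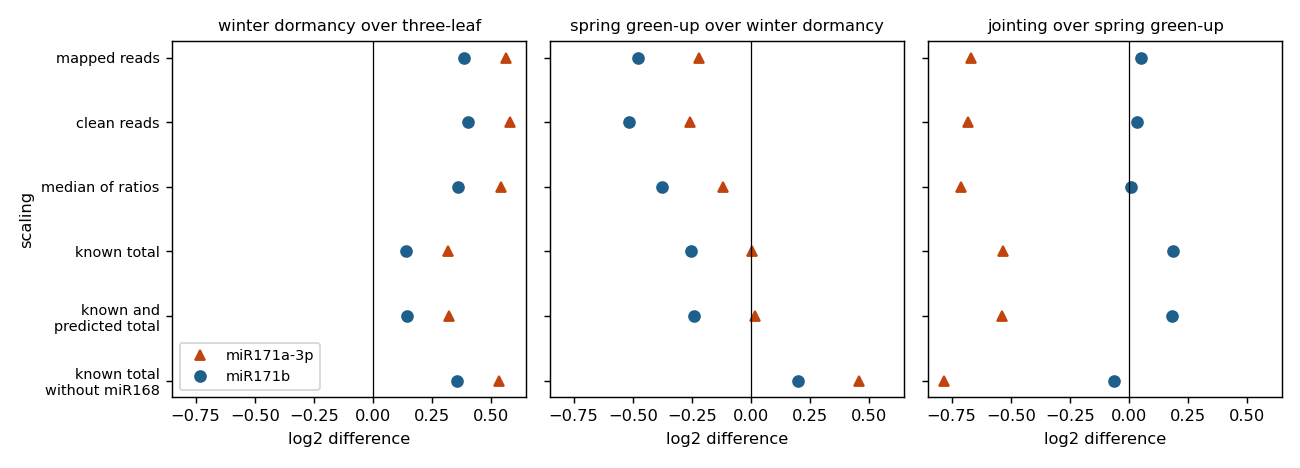
Log2 difference, later over earlier stage (x axis), of miR171a-3p (triangles) and miR171b (circles) for each pair of consecutive stages (panels) under 6 scalings (y axis). The distance between the symbols is the same under every scaling, the winter differences stay above 0 and those of miR171a-3p at jointing stay below 0. At spring green-up both are above 0 when miR168 is left out of the total. There miR171a-3p is also just above 0 with the known total and the known and predicted total.

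Likeness to other miRNAs was measured as the root mean square distance between log2 levels over the 4 libraries, each profile centred on its own mean. Closest to miR171a-3p was miR444b.1, at a distance of 0.13, a member of the grass miR444 family that targets MADS-box factors. It had 1345.9 RPM at the three-leaf stage, 1914.1 RPM at winter dormancy, 1363.8 RPM at spring green-up and 1055.3 RPM at jointing. Next came miR2658 (0.17), miR1122b-3p (0.18), miR9776 (0.18) and miR1136 (0.21). Closest to miR171b were miR5181-3p (0.15), miR9674b-3p (0.15), miR1122b-3p (0.15), miR5049d (0.16) and miR1436 (0.16). The distance between miR171a-3p and miR171b was 0.26, so that miR171b was only the 11th nearest to miR171a-3p, and miR171a-3p the 19th nearest to miR171b. For the family sum the nearest were miR1122b-3p (0.099), miR444b.1 (0.10), miR5181-3p (0.12), miR9776 (0.13) and miR2658 (0.13). With 4 points that share the same libraries these distances are a description only.

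Set beside 11 other conserved families whose targets are transcription factors, the miR170/miR171 sum was abundant and steady, although miR171a-3p and miR171b parted at jointing. By its mean over the stages, 4393 RPM, it was second to miR159 (33276 RPM), which targets GAMYB factors, and ahead of miR167 (3161 RPM), which targets auxin response factors. The highest sum of the family was 1.51-fold its lowest in RPM, and between 1.17-fold and 1.66-fold under the other scalings. From the narrowest, this range stood 1st of the 12 families with either total of the tables. It stood 2nd with the median of ratios and clean reads, and 3rd without miR168. In RPM, of the other 11 families only miR396, which targets growth-regulating factors, had a narrower range (1.34-fold), and miR444 came next after miR170/miR171 (1.81-fold). The 9 others met the criterion between some pair of stages, up to 35.9-fold for miR319, which targets TCP factors, with 69.3 RPM at spring green-up against 2486.4 RPM at the three-leaf stage. At winter dormancy compared with the three-leaf stage, miR164 (NAC factors) and miR165/miR166 (HD-ZIP III factors) were higher by the criterion and miR319 lower. For spring green-up compared with winter dormancy, 1 family, miR160 (auxin response factors), was higher and 3 were lower, namely miR156/miR157 (SPL factors), miR159 and miR319. At jointing compared with spring green-up, miR172 (AP2 factors) and miR319 were higher and miR164 and miR165/miR166 lower. None of these 11 differences changed its direction under the 5 other scalings, but 5 of them came within 2-fold under at least 1. At winter dormancy these were miR164 and miR165/miR166, under 2 of the 5 scalings each. At spring green-up they were miR156/miR157, under 4 of the 5 with a log2 difference down to -0.40, and miR159, under 1. At jointing it was miR165/miR166, under 1. In none of the comparisons did the miR170/miR171 sum reach 2-fold, under RPM or any other scaling tried.

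**Figure D5:**
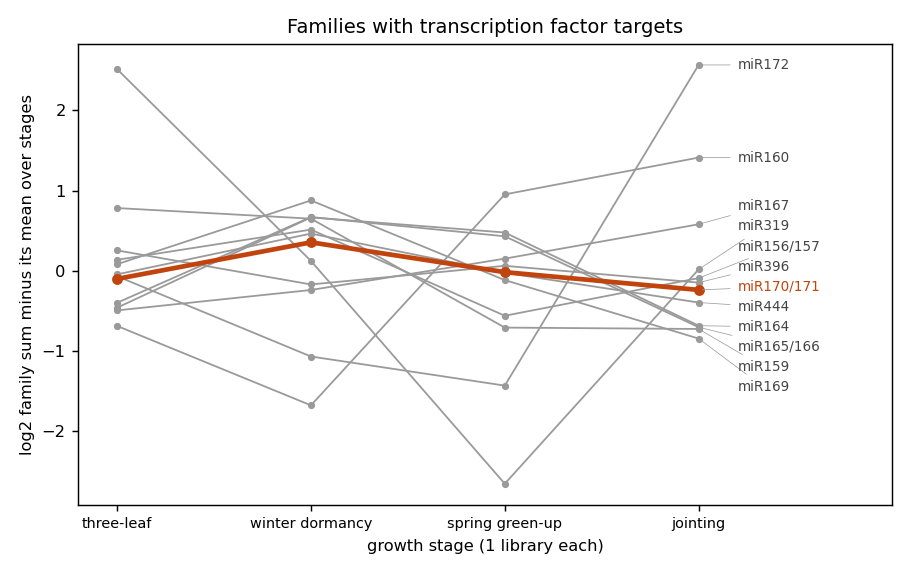
Log2 of the family sum in RPM, centred on its mean over the 4 stages (y axis), for miR170/miR171 (orange) and 11 other families with transcription factor targets (grey) in the library of each stage (x axis). In RPM the miR170/miR171 line has a range of 1.51-fold, while that of miR319 spans 35.9-fold.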

How the data were processed

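Small RNA reads were trimmed and filtered by the authors, cleared of rRNA, tRNA, snRNA, snoRNA and repeat reads with SOAP, and assigned to plant miRNAs of miRBase by BLAST with few mismatches (both at most 2 and fewer than 2 are stated). Remaining reads that mapped perfectly to the Chinese Spring genome were searched for new miRNAs with MIREAP. The authors deposited RPM values over mapped reads, rounded to 1 decimal. Repeated entries of miR531 and miR5050 with equal values were merged, leaving 371 of 373.

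From the deposited RPM, reads were estimated with the library totals of the study (20.3 M, 20.5 M, 18.1 M and 21.8 M mapped reads in order of stage), because 1 decimal is too coarse to recover whole reads. Ratios have exact conditional binomial intervals, levels Poisson intervals, shares Clopper-Pearson intervals and differences of log2 differences normal intervals on the log scale. Values under 3 reads were raised to 3 reads before the 2-fold criterion was applied. No p-value was computed with 1 library per stage. The calculations were tested on simulated data drawn from the counting model that the intervals assume. The simulation held no spread between plants, PCR copies or misassigned reads, so it checks the arithmetic only. Members were all names filed under the family. Earlier results of these data were known when members and lists were set. Named miRNAs are all family members, close sequences (at least 16 nt overlap, at most 2 mismatches), the 5 nearest profiles, and 11 families with transcription factor targets, with miR168 because it sets the table total. Other names were chosen after their values were seen. Alternatives were 5 scalings, pseudocounts, other fold and level limits, listed zeros as missing and other sums of names. Python 3.11.15, numpy 2.4.6, pandas 2.3.3, scipy 1.17.1, matplotlib 3.10.9 and ViennaRNA 2.7.2 (RNAduplex) were used.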

Additional observations from a re-analysis of the deposited data

How the results depend on the processing

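Log2 differences are given for winter dormancy over three-leaf, spring green-up over winter dormancy and jointing over spring green-up, in that order. Scaled by the total of known miRNAs they were 0.21, -0.15 and -0.087 for the family sum, 0.32, 0.0051 and -0.53 for miR171a-3p, and 0.14, -0.25 and 0.185 for miR171b. With predicted miRNAs in that total they were 0.21, -0.13 and -0.091 for the sum, 0.32, 0.019 and -0.54 for miR171a-3p, and 0.14, -0.24 and 0.18 for miR171b. Without miR168 in the known total they were 0.42, 0.31 and -0.33 for the sum, 0.54, 0.46 and -0.78 for miR171a-3p, and 0.35, 0.20 and -0.062 for miR171b. Median-of-ratios scaling, over 179 miRNAs, gave 0.43, -0.27 and -0.26 for the sum, 0.54, -0.12 and -0.71 for miR171a-3p, and 0.36, -0.38 and 0.010 for miR171b. Scaling by clean reads moved the winter value of the sum to 0.47 and the green-up values to -0.41 for the sum, -0.26 for miR171a-3p and -0.52 for miR171b. The scalings shift all miRNAs alike, by up to 0.68 on the log2 scale (spring green-up over winter dormancy, without miR168). Pseudocounts of 1 and 0.1 RPM and the sum of 3p names alone left these values within their counting intervals.

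The number of members past the fold criterion was 1 (miR171a-3p) at 1.5-fold and 2 (miR170-5p and miR171k-5p, against listed zeros) with no level filter, and 0 under the other settings. Over all 371 known miRNAs it was 222 by the main criterion, 260 at 1.5-fold and 292 with no level filter. It was 111 at more than 50 RPM and 131 with listed zeros treated as missing.

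No paired analysis was possible because each stage has 1 library, and no fit without a library was run for the same reason. The depth limits miR170-3p and the 5p names, whose 48 to 90 estimated reads where listed above 0 cannot separate small differences. For miR171a-3p and miR171b counting error is small and the unmeasured spread between plants and library preparations is the limit.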
